A study of Mus musculus with 8 samples.

Results

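Chemokines are small secreted proteins that steer the movement of leukocytes, and chemokine receptors are the membrane proteins that read them. The genes described here are all those whose symbol starts with Ccl, Ccr, Cxcl or Cxcr followed by a digit, together with Cx3cl1, Cx3cr1, Xcl1 and Xcr1, as far as the array holds a probe set that names exactly 1 gene. They number 50 of the 18193 genes measured in this way, with 33 ligands and 17 receptors, and each gene was read from whichever of its probe sets was brightest on average across the 8 arrays. Values are log2 intensities, so that a difference of 1 is a 2-fold difference. RNA came from pancreatic islets of male mice of the C57Bl/6 background in 4 groups: wild-type (WT) or Irs2 knockout (Irs2-/-), given distilled water (untreated) or sodium tungstate in the drinking water (treated). Treatment lasted 21 days from 10 weeks of age, and islets were taken at 13 weeks. Irs2 codes for an adaptor protein of insulin and insulin-like growth factor signalling, and sodium tungstate is an inorganic salt with insulin-like effects in diabetic animals. The tungstate concentration reads 2 mg/ml where the design is described, but the sample labels put it at 2 mg/dl. Each group had 2 arrays, described as independent samples, without a statement of how many mice gave islets to each. The knockout is named with no promoter or cell type that would limit it to islet cells. The comparisons ask which of these genes differ with the genotype, which differ with tungstate, and whether the difference with tungstate depends on the genotype.

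The family is divided by the spacing of conserved cysteines into CC, CXC, CX3C and XC chemokines, and the receptors are G protein-coupled receptors named after the class they bind. Inflammatory chemokines are made on demand by macrophages, endothelium, stroma and, under cytokines, islet cells, and they draw monocytes, neutrophils and effector T cells. Homeostatic chemokines such as Cxcl12, Cxcl13, Ccl19 and Ccl21 are made constantly by stroma and place lymphocytes in lymphoid tissue. In islets the family is best known from insulitis, in which Cxcl9 and Cxcl10 bind Cxcr3 on T cells, and Ccl2 draws monocytes.

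The labels held where they could be checked. Irs2 measured 7.91 and 7.73 in untreated WT and 7.89 and 7.61 in treated WT islets, against 4.54 and 4.89 in untreated and 4.78 and 4.86 in treated Irs2-/- islets. Mean levels of 7 islet hormone and secretory genes lay between 13.73 and 13.92 on all arrays, so the tissue matched its label. The mean of 12 acinar enzyme genes ranged from 9.13 to 12.16, so exocrine tissue was present and uneven. Markers of blood cells were unequal between the groups as well. The mean of 14 macrophage and dendritic cell genes was 8.14 and 8.41 in untreated Irs2-/- islets and between 6.77 and 7.16 on the other 6 arrays. The mean of 10 T and natural killer cell genes was 7.03 and 6.38 there and between 5.23 and 5.70 elsewhere. The mean of 5 B cell genes was 9.75 and 8.98 there, but 8.60 and 5.89 in the 2 untreated WT arrays. The part of these cells in the results that follow was not tested, and in whole islets fewer cells of a type and less RNA per cell cannot be told apart.

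Of the 50 genes, 32 (64%) had a mean over the 8 arrays at or above log2 5.27, the 40th percentile of all 45037 probe sets that are not controls, which stands in for background because the values carry no detection calls. Of all genes, 73.5% did. Untreated Irs2-/- islets held the most members above that level. Both arrays were above it for 21 members in untreated WT, 21 in treated WT, 31 in untreated Irs2-/- and 23 in treated Irs2-/- islets. These are 42%, 42%, 62% and 46% of the members, while over all genes the shares were nearly level at 69.8%, 70.8%, 71.7% and 71.6%. At the 60th percentile (log2 6.21) the counts were 7, 7, 16 and 10. These are 14%, 14%, 32% and 20% of the members, against 54.1%, 53.9%, 55.8% and 54.4% of all genes. In every group 18 members were above the 40th percentile on both arrays: the ligands Ccl2, Ccl4, Ccl5, Ccl6, Ccl24, Ccl27a, Ccl28, Cx3cl1, Cxcl1, Cxcl13, Cxcl16, Cxcl17 and Xcl1 and the receptors Ccr2, Ccr6, Ccr10, Cx3cr1 and Cxcr3. In no group were 17 members above it on both arrays. Ccr1 and Ccr7, receptors of inflammatory CC ligands and of Ccl19 and Ccl21, were above it on both untreated Irs2-/- arrays and on none of the other 6 arrays. The share of all genes with this pattern was not counted.

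**Figure D1:**
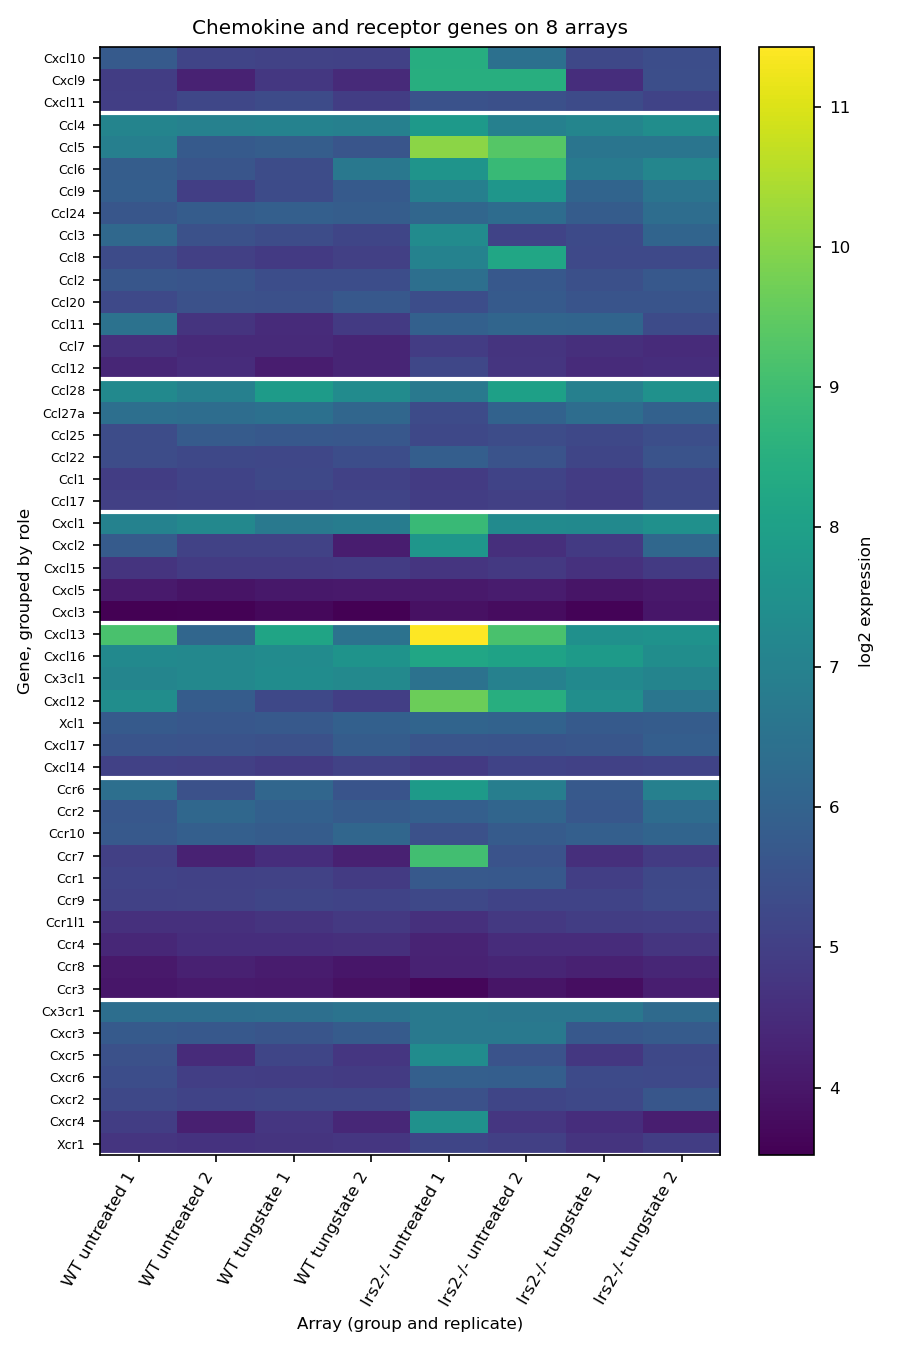
Level of each of the 50 genes (rows, in groups by role) on each of the 8 arrays (columns), coloured by log2 expression from dark (low) to yellow (high). The untreated Irs2-/- replicate 1 column holds the 3 brightest cells, Cxcl13 at 11.43, Ccl5 at 10.05 and Cxcl12 at 9.66, and colours are to be compared along a row, not between genes.

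More members were higher in untreated Irs2-/- than in untreated WT islets than lower. By limma, with p-values adjusted by the Benjamini-Hochberg method over all 13369 genes tested, 10 of the 32 tested members were higher at an adjusted p under 0.05 and 0 were lower. That is 31.2% of them, against 16.8% of all genes in either direction, 8.27% in the higher and 8.52% in the lower direction. The median difference was 0.60 over the tested members and -0.01 over all genes. The 10 were Cxcl9, Cxcl10, Ccl5, Ccl6, Ccl8, Ccl9, Cxcl12, Cxcl16, Cxcr3 and Cxcr6. The level filter bears on this: 6 of the 32 tested members, Ccl8, Ccr7, Cxcl2, Cxcl9, Cxcr5 and Cxcr6, would lie under background without the untreated Irs2-/- arrays and so entered the test through the group in which they are high. With no filter and all 50 members tested, 11 (22%) were higher and 0 lower, against 12.7% of all genes in either direction and 6.66% higher, and the added gene was Ccr1. Without any test, both untreated Irs2-/- arrays exceeded the other 6 for 19 of the 50 members (38%, against 13.2% of all genes) and lay under the other 6 for Cx3cl1 alone (9.25% of all genes). The count rested on single arrays. It changed with the array left out, as did the share of all genes called. It fell most without untreated WT replicate 2 and rose most without untreated Irs2-/- replicate 2. Without the latter array Ccl27a and Cx3cl1, the genes that were then called lower, differed by -1.06 and -0.66, against -0.71 and -0.42 on all arrays. Differences of other genes without single arrays are given with those genes below. With the macrophage marker mean added to the fit, 0 members and 0 of all 13369 genes were called, and since that mean separates the untreated Irs2-/- arrays from the rest, it and the group cannot be told apart.

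With tungstate, 4 members fell in Irs2-/- islets, namely Cxcl9, Ccl5, Cxcr3 and Ccl8, and 0 rose. These are 12.5% of the tested members, against 0.494% of all genes in either direction, 0.471% in the lower and 0.0224% in the higher direction. The level filter bears on this as well. Cxcl9 and Ccl8 would lie under background without the untreated Irs2-/- arrays, the higher group of this comparison, and entered the test through it. The median difference was -0.53 over the tested members and -0.01 over all genes, and 26 of 32 members had a lower mean. With no filter the count was again 4, of 50 (8%, against 0.5% of all genes). This comparison and the one before it share the untreated Irs2-/- arrays, so a high value there enters both with opposite sign. The count rested on single arrays, and the share of all genes called changed with the array left out as well. It fell without either treated WT array, treated Irs2-/- replicate 2 or untreated Irs2-/- replicate 1, and rose without untreated Irs2-/- replicate 2. Without that array Ccl2, Ccr7, Cxcl1, Cxcl10 and Cxcr5 differed by -0.84, -4.29, -1.49, -3.16 and -2.36. Without untreated Irs2-/- replicate 1 they differed by -0.13, -0.79, 0.07, -1.14 and -0.54.

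The other comparisons of pairs of groups, and the interaction, gave no calls. Between treated Irs2-/- and treated WT islets limma called 0 of 32 members, with 3 at an unadjusted p under 0.05 and 1.02% of all genes called. For tungstate in WT islets it called 0, with 1 at an unadjusted p under 0.05 and 0% of all genes called. For the difference between the tungstate effects in the 2 genotypes it called 0, with 7 at an unadjusted p under 0.05 and 0.0224% of all genes called. No member is therefore shown to respond to tungstate differently in Irs2-/- and WT islets. The shares of all genes given here are at an adjusted p under 0.05. The share at an unadjusted p under 0.05 was not counted, so the member counts at that threshold have nothing to be set against. Averaged over both treatments, 9 members (28.1%) were higher in Irs2-/- islets and 0 lower, against 22.1% of all genes in either direction and 10.9% higher. They were the 10 named above without Cxcl10, whose averaged difference was 1.12 ± 0.38 (SE, adjusted p = 0.0713).

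**Figure D2:**
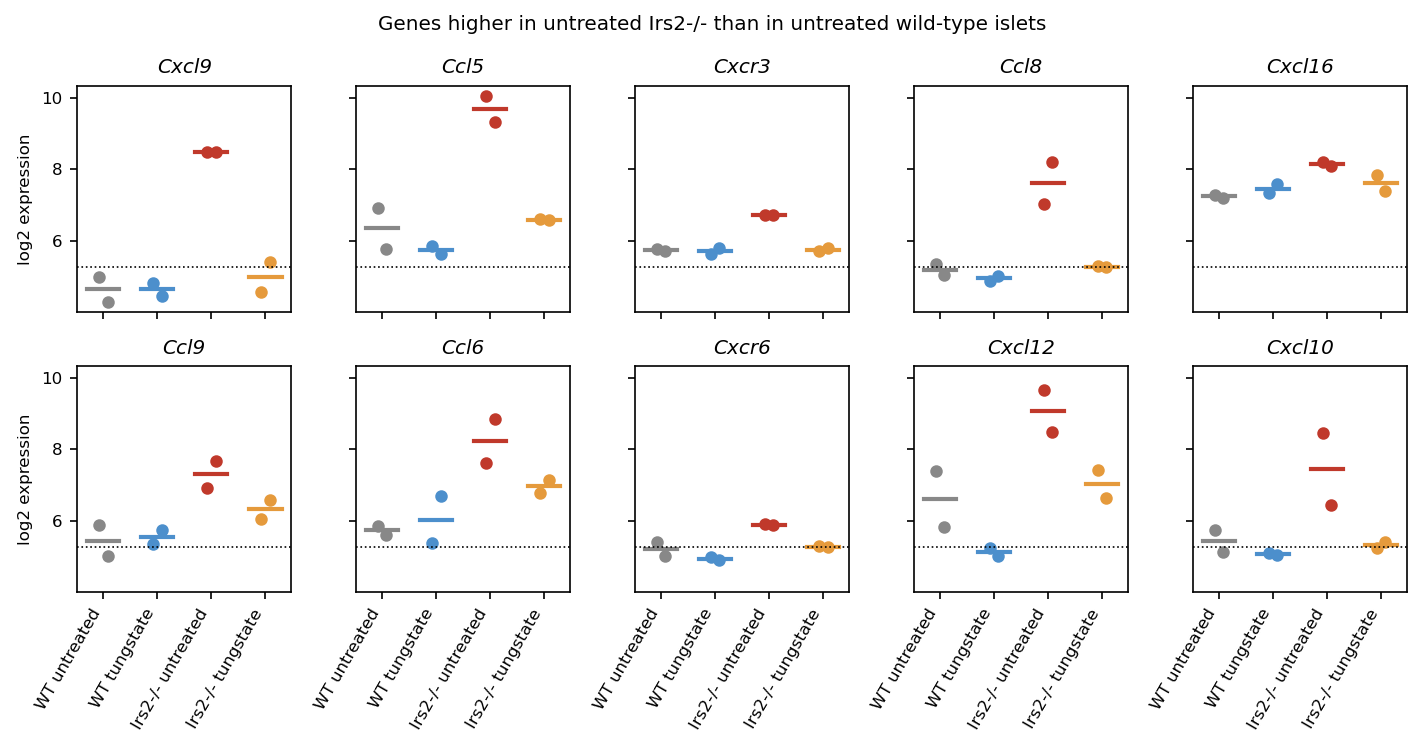
Log2 level of each gene past the test in any comparison, 1 panel a gene, with the 2 arrays of each group as points, their mean as a line and the background level dotted. In every panel the 2 untreated Irs2-/- points lie above those of untreated WT islets, and Cxcl9, at 8.49 on both arrays, has the widest gap.

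**Figure D3:**
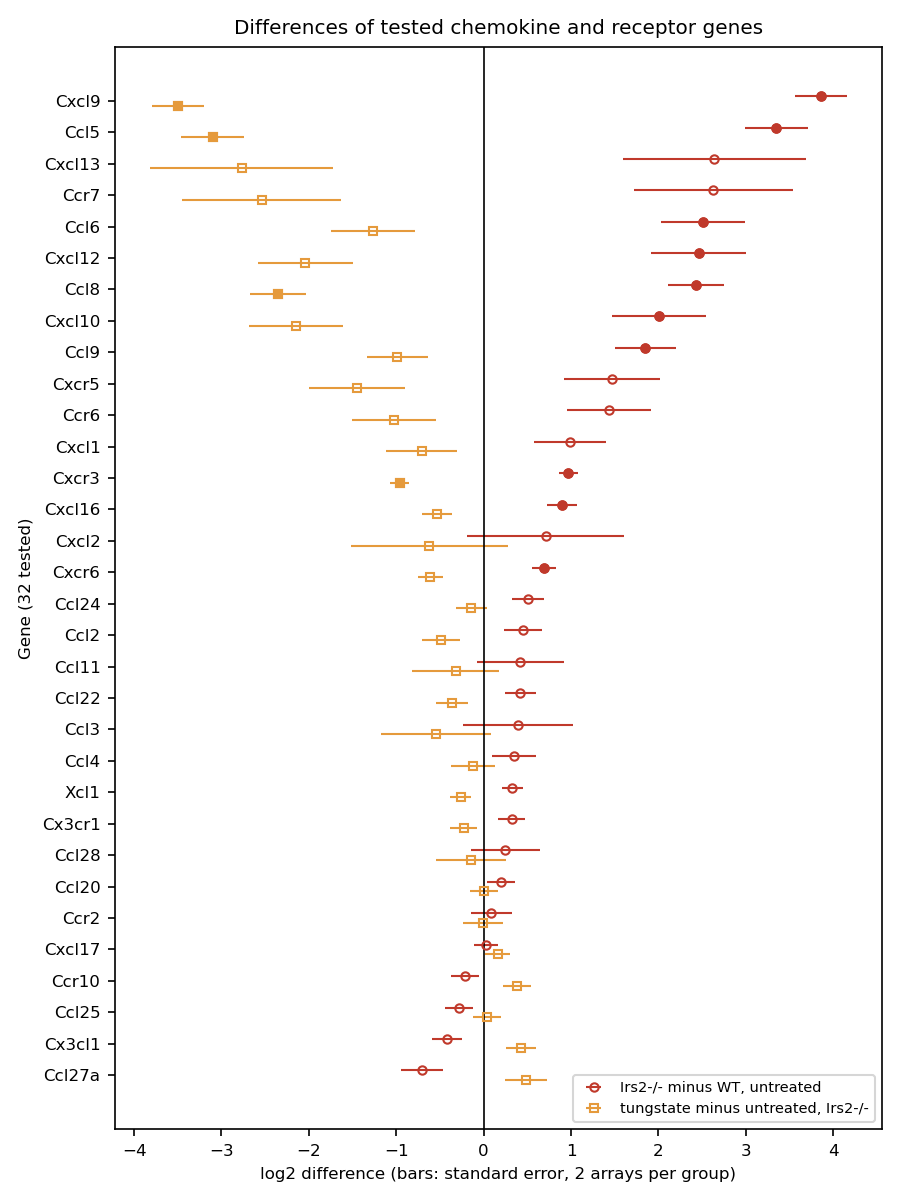
Log2 difference with its SE for the tested genes between untreated Irs2-/- and untreated WT islets (circles) and with tungstate in Irs2-/- islets (squares), 2 arrays a group, filled where the adjusted p is under 0.05. Of the circles 10 are filled, all right of 0, and of the squares 4, all left of 0. Both comparisons use the untreated Irs2-/- arrays, so mirrored positions are built in.

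The receptor Cxcr3 and 2 of its 3 ligands, Cxcl9 and Cxcl10, rose in untreated Irs2-/- islets. Cxcl9, an interferon-gamma-induced ligand of Cxcr3, measured 4.97 and 4.29 in untreated WT, 4.81 and 4.45 in treated WT, 8.49 and 8.49 in untreated Irs2-/- and 4.57 and 5.41 in treated Irs2-/- islets. The untreated Irs2-/- arrays stood more than 3 log2 units above every other array, and 5 of the other 6 lay under background. Cxcl9 was 14.54-fold higher in untreated Irs2-/- than in untreated WT islets (3.86 ± 0.30, SE, adjusted p = 0.00101), a size that is uncertain because the WT values lie under background. With tungstate it fell by 3.50 ± 0.30 in Irs2-/- islets (adjusted p = 0.00626), while the difference was 0.00 ± 0.30 in WT islets. For the difference between these effects the estimate was -3.50 ± 0.43, with an adjusted p of 0.0920, and it was -3.92 ± 0.36 (adjusted p = 0.0432) without treated Irs2-/- replicate 2. Its weaker probe set also gave a higher value in untreated Irs2-/- islets (0.87 ± 0.17, adjusted p = 0.0212 over all probe sets that name 1 gene). That probe set was above background on untreated Irs2-/- replicate 1 alone, at 5.65.

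Cxcl10, another ligand of this receptor and likewise induced by interferons, was at 8.46 and 6.44 in untreated Irs2-/- islets and between 5.05 and 5.75 on the other 6 arrays. The groups did not overlap, but the untreated Irs2-/- pair lay far apart. The difference between the untreated groups was 2.01 ± 0.54 (adjusted p = 0.0416) and that with tungstate in Irs2-/- islets -2.15 ± 0.54 (adjusted p = 0.154). The first of these missed the threshold without any 1 of the 4 WT arrays or without untreated Irs2-/- replicate 1, with adjusted p from 0.0605 to 0.178. Without untreated Irs2-/- replicate 2 the tungstate difference was -3.16 ± 0.25 (adjusted p = 0.0133). Cxcl11, the remaining ligand, was below the mean level required; it measured 5.52 and 5.46 in untreated Irs2-/- islets and between 4.97 and 5.33 elsewhere, and RefSeq lists it as a transcribed pseudogene in this strain. Cxcr3 itself, the receptor of effector T and natural killer cells, was at 6.71 on both untreated Irs2-/- arrays and between 5.62 and 5.79 on the other 6. Its difference between the untreated groups was 0.97 ± 0.11 (1.96-fold, adjusted p = 0.00274). With tungstate in Irs2-/- islets it fell by 0.96 ± 0.11 (adjusted p = 0.0185). That fall missed the threshold without either treated WT array, without untreated Irs2-/- replicate 1 or without treated Irs2-/- replicate 2 (adjusted p from 0.0610 to 0.0822), at differences from -0.96 to -1.0.

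The bases just before the start of transcription are shown for the genes that passed both tests and have an entry in the RefSeq promoter table (GRCm38.p6), together with Cxcl10, which was added after its motifs were seen. The table holds a window for 37 of the 50 members, and has none for Ccl5. Each line gives the 250 bases before the start, 5′ to 3′ on the strand of the gene, with motif matches in capitals. Cxcl9 lies on the minus strand at chr5:92328080-92328329, Cxcl10 on the minus strand at chr5:92348890-92349139, Cxcr3 on the minus strand at chrX:101734148-101734397, and Ccl8 on the plus strand at chr11:82114935-82115184.
Cxcl9: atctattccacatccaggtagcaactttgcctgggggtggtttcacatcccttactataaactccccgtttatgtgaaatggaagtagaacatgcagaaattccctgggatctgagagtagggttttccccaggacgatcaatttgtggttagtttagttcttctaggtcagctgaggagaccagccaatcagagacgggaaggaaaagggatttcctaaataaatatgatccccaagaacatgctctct
Cxcl10: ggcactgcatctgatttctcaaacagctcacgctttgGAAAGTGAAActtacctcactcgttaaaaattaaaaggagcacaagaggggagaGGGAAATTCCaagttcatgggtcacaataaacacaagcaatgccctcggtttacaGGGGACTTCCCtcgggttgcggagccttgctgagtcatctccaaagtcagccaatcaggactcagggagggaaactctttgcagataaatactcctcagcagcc
Cxcr3: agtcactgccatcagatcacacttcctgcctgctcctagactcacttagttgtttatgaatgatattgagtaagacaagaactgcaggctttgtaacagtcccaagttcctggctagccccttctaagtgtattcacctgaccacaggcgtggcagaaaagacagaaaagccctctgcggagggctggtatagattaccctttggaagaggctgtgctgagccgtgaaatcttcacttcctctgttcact
Ccl8: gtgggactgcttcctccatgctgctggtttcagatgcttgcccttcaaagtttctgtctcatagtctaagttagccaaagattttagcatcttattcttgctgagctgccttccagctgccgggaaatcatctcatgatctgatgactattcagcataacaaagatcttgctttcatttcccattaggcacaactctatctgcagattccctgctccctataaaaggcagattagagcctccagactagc
The motifs searched on both strands, over windows of 300 bases that reach 50 bases past the start, were TTCNNNGAA (a site activated by interferon gamma), the interferon-stimulated response element (TTTC, NN and TTTC again) and the NF-kB consensus. A first, narrower NF-kB pattern was replaced by the consensus after its matches had been seen. Of all 32851 windows, 8.30%, 3.44% and 8.46% hold these motifs. Cxcl10 holds GAAAGTGAAA from base -213 to -204, which is the interferon element read on the other strand, GGGAAATTCC from -159 to -150, and a pair of overlapping NF-kB matches from -104 to -94. In the windows of Cxcl9, Cxcr3 and Ccl8 these letters do not occur. NF-kB matches occur in 11 of the 37 members with a window, among them 2 of the 8 genes called higher in untreated Irs2-/- islets (Ccl9 and Cxcl10), the interferon element in 2 (Cxcl10 and 1 other), and the interferon gamma site in 4, none of which was called. A member was counted when any window of it matched, while the shares above are of windows, so counts and shares differ in unit.

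Of the 10 tested inflammatory CC ligands, the role with the most tested members, 4 rose in untreated Irs2-/- islets (8.27% of all genes did) and 2 fell with tungstate (0.471% of all genes did). Ccl5, a chemokine made by T and natural killer cells among others, measured 6.92 and 5.76 in untreated WT, 5.85 and 5.61 in treated WT, 10.05 and 9.33 in untreated Irs2-/- and 6.60 and 6.58 in treated Irs2-/- islets. Both untreated Irs2-/- arrays were above every other array by over 2 log2 units. The difference between the untreated groups was 3.35 ± 0.36 (10.18-fold, adjusted p = 0.00257). With tungstate Ccl5 fell by 3.10 ± 0.36 in Irs2-/- islets (8.57-fold lower, adjusted p = 0.0185). That call was lost without either treated WT array, without untreated Irs2-/- replicate 1 or without treated Irs2-/- replicate 2, with adjusted p from 0.0666 to 0.0981 and differences from -2.74 to -3.10. Ccl8, a monocyte attractant that in the mouse binds Ccr8, measured 7.03 and 8.20 in untreated Irs2-/- islets and between 4.87 and 5.33 on the other 6 arrays. It was 5.40-fold higher in the untreated Irs2-/- group (2.43 ± 0.32, adjusted p = 0.00422), from a WT group mean under background. With tungstate it fell by 2.35 ± 0.32 in Irs2-/- islets (adjusted p = 0.0328), a call lost without either treated WT or either treated Irs2-/- array (adjusted p from 0.0564 to 0.129). Its difference between the tungstate effects was -2.11 ± 0.45 (adjusted p = 0.398), and -2.69 ± 0.22 (adjusted p = 0.0170) without untreated Irs2-/- replicate 1.

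Ccl6 and Ccl9, macrophage-derived ligands of Ccr1, rose in the untreated Irs2-/- islets and stayed between the groups under tungstate. Ccl6 was at 5.85 and 5.60 in untreated WT, 5.36 and 6.69 in treated WT, 7.62 and 8.85 in untreated Irs2-/- and 6.78 and 7.15 in treated Irs2-/- islets. Ccl9 was at 5.88 and 5.00, 5.34 and 5.75, 6.92 and 7.68, and 6.06 and 6.57 in the same order. For both genes the treated Irs2-/- arrays lay above all WT arrays and below the untreated Irs2-/- pair. Between the untreated groups the difference was 2.51 ± 0.48 for Ccl6 (adjusted p = 0.0143) and 1.85 ± 0.35 for Ccl9 (adjusted p = 0.0139). Neither passed with tungstate in Irs2-/- islets (-1.27 ± 0.48, adjusted p = 0.312, and -0.99 ± 0.35, adjusted p = 0.288) or between the treated groups (0.94 ± 0.48, adjusted p = 0.393, and 0.77 ± 0.35, adjusted p = 0.339). The Ccl6 call was lost without either untreated WT array (adjusted p = 0.0508 and 0.0722), and that of Ccl9 without untreated WT replicate 2 or untreated Irs2-/- replicate 2 (adjusted p = 0.0669 and 0.0503). Of 13 tested macrophage markers, 13 were higher in untreated Irs2-/- islets and 6 lower with tungstate. Among 8 tested T and natural killer cell markers these numbers were 5 and 1. Over all genes the shares were 8.27% higher and 0.471% lower. The part of either cell type in the Ccl6 and Ccl9 values was not tested.

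The remaining inflammatory CC ligands did not pass the test. Ccl2, the main ligand of Ccr2 on monocytes, was at 6.41 and 5.70 in untreated Irs2-/- and 5.63 and 5.59 in untreated WT islets (0.45 ± 0.22, adjusted p = 0.191). Ccl3 and Ccl4, macrophage inflammatory proteins, were high on untreated Irs2-/- replicate 1 alone, at 7.34 and 7.81, while replicate 2 read 5.11 and 6.97. Their differences were 0.39 ± 0.63 (adjusted p = 0.719) and 0.35 ± 0.25 (adjusted p = 0.370), and without replicate 2 they were 1.50 ± 0.37 (adjusted p = 0.0454) and 0.77 ± 0.16 (adjusted p = 0.0297). Ccl2 likewise passed only without replicate 2 (0.80 ± 0.15, adjusted p = 0.0227). Ccl24, an eosinophil attractant, differed by 0.51 ± 0.18 (adjusted p = 0.0883), and passed without either treated Irs2-/- array (adjusted p = 0.0292). Ccl11, another eosinophil attractant, ranged from 4.72 to 6.49 within the untreated WT group. Its difference of 0.42 ± 0.50 rested on those arrays and became 1.31 ± 0.30 (adjusted p = 0.0492) without untreated WT replicate 1. Ccl20, the ligand of Ccr6, differed by 0.20 ± 0.16.

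The ligands and receptors Cxcl12, Cxcl13, Ccr7, Cxcr5, Cxcr4 and Ccr6, known for placing lymphocytes, were put together here with their values known. Of these, Cxcl12 alone passed the test between the untreated groups, which 16.8% of all genes passed. Cxcl12, the stromal ligand of Cxcr4, measured 7.39 and 5.83 in untreated WT, 5.23 and 5.00 in treated WT, 9.66 and 8.49 in untreated Irs2-/- and 7.43 and 6.64 in treated Irs2-/- islets. The untreated Irs2-/- arrays were highest, but treated Irs2-/- and untreated WT islets overlapped. Other Cxcl12 probe sets gave smaller differences between the untreated groups, 1.33 ± 0.27 and, at 5.50 to 5.94 on all arrays, 0.22 ± 0.15. Their adjusted p was 0.0219 and 0.437 by limma over all probe sets that name 1 gene. On the probe set used, the difference between the untreated groups was 2.46 ± 0.54 (adjusted p = 0.0224), and between the treated groups 1.92 ± 0.54 (adjusted p = 0.133). Without untreated WT replicate 2 the first became 1.68 ± 0.49 (adjusted p = 0.0919), and without untreated Irs2-/- replicate 1 it became 1.88 ± 0.59 (adjusted p = 0.104). Averaged over treatments it was 2.19 ± 0.38 higher in Irs2-/- islets (adjusted p = 0.00763). The mean of 9 fibroblast and stellate cell genes followed a similar order, at 8.13 and 6.98 in untreated WT, 6.17 and 6.50 in treated WT, 8.53 and 8.22 in untreated Irs2-/- and 8.23 and 7.69 in treated Irs2-/- islets, and its part in the Cxcl12 values was not tested.

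Cxcl13, which draws B cells through Cxcr5, ranged widely within 3 of the 4 groups. It measured 9.17 and 6.14 in untreated WT, 8.15 and 6.50 in treated WT, 11.43 and 9.16 in untreated Irs2-/- and 7.50 and 7.55 in treated Irs2-/- islets. On its other probe set untreated WT replicate 1, at 9.74, lay just under the untreated Irs2-/- pair at 11.93 and 9.79. The difference there was 3.66 ± 1.60 (adjusted p = 0.198). On the probe set used, untreated WT replicate 1 read slightly above untreated Irs2-/- replicate 2, so the groups overlapped. The difference of 2.64 ± 1.05 on it did not pass (adjusted p = 0.121). Without untreated WT replicate 1 it was 4.15 ± 0.93 (adjusted p = 0.0458). Ccr7, the lymph node homing receptor of T cells and mature dendritic cells, was at 9.03 and 5.54 in untreated Irs2-/- islets and between 4.26 and 5.02 on the other 6 arrays. Cxcr5 was at 7.37 and 5.55 there and between 4.50 and 5.49 elsewhere. For both receptors 1 array carried most of the difference: 2.63 ± 0.91 for Ccr7 (adjusted p = 0.0868) and 1.47 ± 0.55 for Cxcr5 (adjusted p = 0.106). Without untreated Irs2-/- replicate 1 these were 0.88 ± 0.30 (adjusted p = 0.127) and 0.56 ± 0.40 (adjusted p = 0.405), and without replicate 2 they were 4.38 ± 0.30 (adjusted p = 0.00274) and 2.38 ± 0.40 (adjusted p = 0.0156). Cxcr4, the receptor of Cxcl12, was named after its values were seen: it read 7.53 on untreated Irs2-/- replicate 1, 4.78 on replicate 2 and 4.18 to 4.97 elsewhere, and its mean was under background. Ccr6, found on B cells and T helper cells, was at 7.84 and 6.91 against 6.41 and 5.49 in untreated WT islets (1.43 ± 0.48, adjusted p = 0.0826). It passed without either treated Irs2-/- array (adjusted p = 0.0454).

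The B cell marker mean was likewise highest on untreated Irs2-/- replicate 1 and uneven within the WT groups, at 8.60 and 5.89 in untreated WT, 7.29 and 5.93 in treated WT, 9.75 and 8.98 in untreated Irs2-/- and 7.30 and 7.79 in treated Irs2-/- islets. With that mean as a covariate 4 of 32 members were called between the untreated groups (3.01% of all genes) and 2 for tungstate in Irs2-/- islets (0.0673% of all genes), so calls fell over all genes as well. The mean of 6 lymph node stroma genes was 7.09 and 6.38 in untreated Irs2-/- islets and between 5.99 and 6.60 elsewhere. Their part in the levels of Cxcl13, Ccr7 and Cxcr5 was not tested. The ligands of Ccr7, Ccl19 and Ccl21, are measured by probe sets that name several near-identical copies and so are not among the 50. The Ccl21 probe set read 10.13 and 8.06 in untreated Irs2-/- islets, 7.43 and 8.90 in treated Irs2-/- islets and 5.37 to 7.22 in the 4 WT arrays. There was no overlap between the genotypes for it, and the difference between the untreated groups was 2.75 ± 0.77 (adjusted p = 0.0727).

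**Figure D4:**
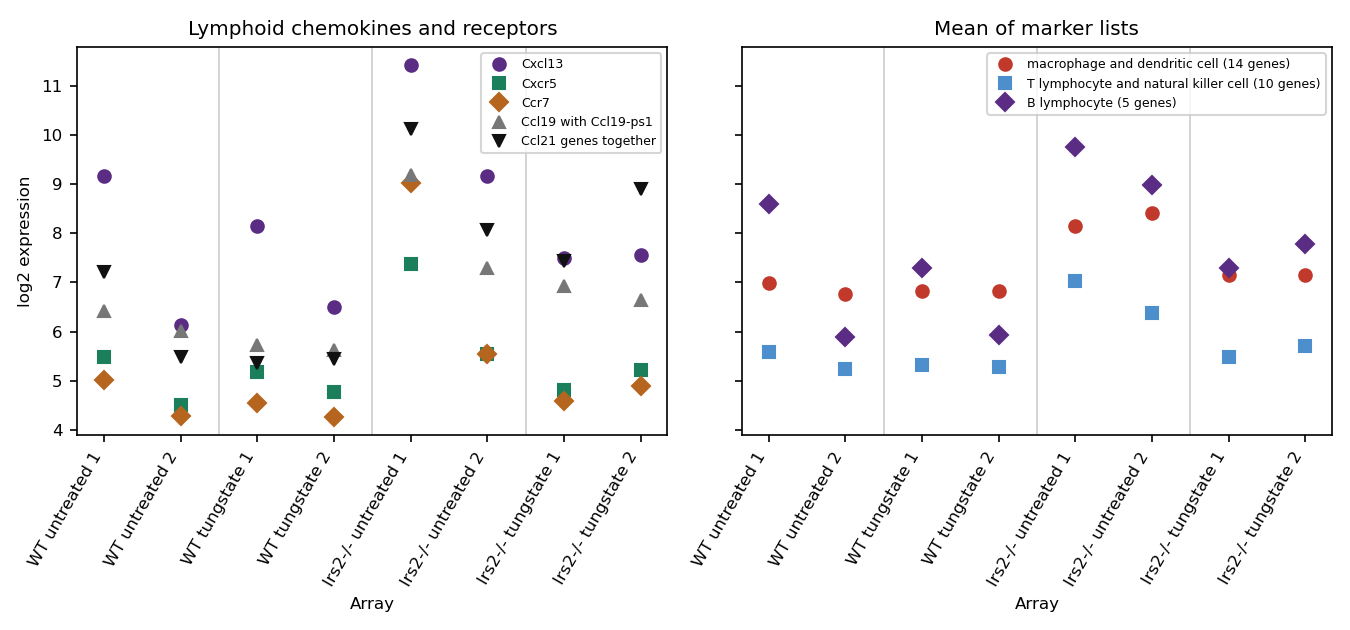
Log2 level on each of the 8 arrays of Cxcl13, Cxcr5, Ccr7 and the probe sets shared by Ccl19 and by Ccl21 copies (left), and the mean level of marker lists of macrophages, T and natural killer cells and B cells (right). Untreated Irs2-/- replicate 1 has the highest value for Cxcl13 (11.43), the Ccl21 copies (10.13), Ccr7 (9.03) and Cxcr5 (7.37), and for the B cell mean (9.75).

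Cxcl16 and Cx3cl1 differ from the rest of the family in being made as membrane-bound forms. Cxcl16, which macrophages and dendritic cells display, and its receptor Cxcr6, found on activated T and natural killer T cells, both rose in untreated Irs2-/- islets. Cxcl16 was at 8.20 and 8.08 there, 7.28 and 7.20 in untreated WT, 7.33 and 7.58 in treated WT and 7.83 and 7.39 in treated Irs2-/- islets (0.90 ± 0.17 between the untreated groups, adjusted p = 0.0130). Cxcr6 was at 5.91 and 5.87 in untreated Irs2-/- islets and between 4.89 and 5.40 on the other 6 arrays (0.69 ± 0.14, adjusted p = 0.0185). Neither difference with tungstate in Irs2-/- islets passed (-0.53 ± 0.17, adjusted p = 0.233, and -0.61 ± 0.14, adjusted p = 0.130). The Cxcl16 call was lost without either untreated WT array or untreated Irs2-/- replicate 1 (adjusted p from 0.0501 to 0.0690), and the Cxcr6 call without untreated WT replicate 2 or either untreated Irs2-/- array (adjusted p from 0.0514 to 0.0897). The weaker probe sets of both genes also passed, at 1.23 ± 0.23 for Cxcl16 (adjusted p = 0.0172) and 0.90 ± 0.13 for Cxcr6 (adjusted p = 0.00697). That of Cxcr6 read 3.65 to 4.80 and so was under background on all arrays.

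Cx3cl1, whose receptor is Cx3cr1 on monocytes and macrophages, was lower in untreated Irs2-/- islets on the probe set used for it. It was at 6.51 and 6.99 in untreated Irs2-/- islets, 7.11 and 7.22 in untreated WT, 7.37 and 7.23 in treated WT and 7.28 and 7.08 in treated Irs2-/- islets. Both untreated Irs2-/- arrays lay under the other 6, but the difference of -0.42 ± 0.17 did not pass (adjusted p = 0.132), and it was -0.66 ± 0.16 (adjusted p = 0.0397) without untreated Irs2-/- replicate 2. Another Cx3cl1 probe set, at 6.14 to 6.47 and so above background on all arrays, gave 0.04 ± 0.11. The remaining ones, under background, gave 0.08 ± 0.12 and -0.15 ± 0.14. Cx3cr1 was at 6.73 and 6.66 in untreated Irs2-/- islets against 6.37 and 6.39 in untreated WT islets (0.32 ± 0.15, adjusted p = 0.179). Xcl1, made by T and natural killer cells, differed by 0.33 ± 0.12 (adjusted p = 0.0981), and Cxcl17, a mucosal chemokine, by 0.03 ± 0.14.

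Ligands of Cxcr2, which draw neutrophils, gave no call between the untreated groups among the 2 of 5 tested. With 16.8% of all genes called, 2 genes are too few to read this as a trait of the role. Cxcl1 was at 8.88 on untreated Irs2-/- replicate 1 and 7.31 on replicate 2, against 6.72 to 7.49 on the other 6 arrays (0.99 ± 0.41 between the untreated groups, adjusted p = 0.139). Its difference was 0.21 ± 0.16 without replicate 1 and 1.77 ± 0.16 (adjusted p = 0.00453) without replicate 2. Cxcl2, named after its values were seen, read 7.68 and 4.60 in untreated Irs2-/- islets, and replicate 2 lay within the range of the other 6 arrays, from 4.16 to 6.17. The mean of 5 neutrophil genes was between 4.82 and 5.30 on all arrays, with 1 of the 5 above background.

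The other CC ligands, which attract lymphocytes to skin, gut and thymus, gave 0 calls among 4 tested of 6. This is too few to set against the 16.8% of all genes called between the untreated groups. Ccl27a, a skin-associated ligand of Ccr10, was at 5.32 and 6.02 in untreated Irs2-/- against 6.40 and 6.36 in untreated WT islets (-0.71 ± 0.24, adjusted p = 0.0776). It passed as lower without untreated Irs2-/- replicate 2 (-1.06 ± 0.20, adjusted p = 0.0233). A pair of probe sets shared with its copy Ccl27b gave -0.37 ± 0.18 and -0.43 ± 0.25. Ccl22, a dendritic cell ligand of Ccr4, differed by 0.42 ± 0.18 (adjusted p = 0.135), Ccl25, the thymic ligand of Ccr9, by -0.28 ± 0.16, and Ccl28, a mucosal ligand of Ccr10, by 0.25 ± 0.40. Ccr10 itself differed by -0.21 ± 0.16.

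Among receptors of inflammatory CC ligands, the call depended on the probe set or the level filter. Ccr2, which brings monocytes from bone marrow to inflamed tissue, has 4 probe sets. The one with the highest mean, which was used, read 5.91 and 6.10 in untreated Irs2-/- and 5.67 and 6.17 in untreated WT islets, a difference of 0.09 ± 0.23 (adjusted p = 0.838). Another read 6.12 and 6.66 in untreated Irs2-/- islets and 4.50 to 5.33 on the other 6 arrays, a difference of 1.41 ± 0.27 (adjusted p = 0.0176 over all probe sets that name 1 gene). The next gave 0.86 ± 0.18 (adjusted p = 0.0243), and the last 0.22. Ccr1, a receptor of Ccl3, Ccl5, Ccl6 and Ccl9, has a mean of 5.22, just under the filter. It was at 5.73 and 5.70 in untreated Irs2-/- islets and between 4.89 and 5.24 on the other 6 arrays, a difference of 0.64 ± 0.13 (adjusted p = 0.0172) when no filter was set. Its other probe set, at 3.21 to 3.53 on all arrays and so far under background, gave 0.02 ± 0.14.

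**Figure D5:**
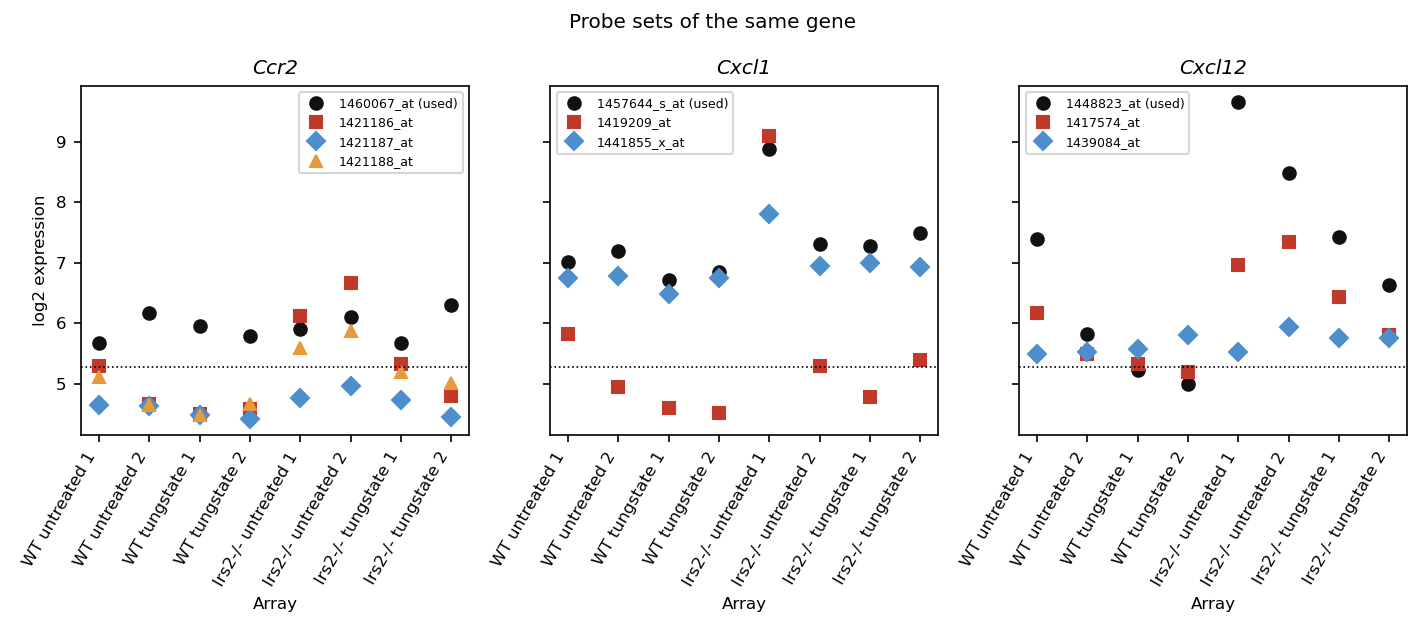
Log2 level on each of the 8 arrays for every single-gene probe set of Ccr2, Cxcl1 and Cxcl12, with the probe set used for the gene in black and the background level as a dotted line. For Ccr2 the probe set used is flat across the groups (5.67 to 6.31), and another is higher on the 2 untreated Irs2-/- arrays (6.12 and 6.66) than elsewhere.

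Several of these genes are neighbours on the chromosome (order from RefSeq, GRCm38.p6). Their calls between untreated Irs2-/- and untreated WT islets stand against 16.8% of all genes called. With so few genes tested in each set of neighbours, no difference between the sets can be read from the counts. On chromosome 5, Cxcl9 and Cxcl10 were both called higher in untreated Irs2-/- islets and Cxcl11 beside them was not tested. In the nearby group of 5 Cxcr2 ligands 2 were tested and 0 called. On chromosome 11 the group with Ccl5, Ccl9, Ccl6, Ccl3 and Ccl4 had 3 calls among 5 tested, and the group of Ccl2, Ccl8, Ccl11 and 3 more had 1 call, Ccl8, among 3 tested. On chromosome 9 the group of receptors that holds Cxcr6, Ccr1 and Ccr2 had 1 call, Cxcr6, among 2 tested.

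Genes that work with the family were followed in 4 lists. Of 12 tested genes of leukocyte adhesion and entry, 9 were higher in untreated Irs2-/- islets and 0 lower, with a median difference of 0.88 (all genes: 8.27% higher, 8.52% lower, median -0.01). Selplg, the leukocyte ligand of selectins, differed by 1.26 ± 0.17 (adjusted p = 0.00411), Itgb2, the shared chain of leukocyte integrins, by 2.42 ± 0.36 (adjusted p = 0.00694), Icam2, an integrin ligand of endothelium, by 0.71 ± 0.11 (adjusted p = 0.00754) and Selp, the selectin of endothelium and platelets, by 0.86 ± 0.16 (adjusted p = 0.0128). With tungstate in Irs2-/- islets 1 of the 12, Selplg, fell (by 1.16 ± 0.17, adjusted p = 0.0351). Icam2 and Selp were also higher in treated Irs2-/- than in treated WT islets (0.66 ± 0.11 and 0.95 ± 0.16, adjusted p = 0.0416 for each). Among atypical receptors, which bind chemokines without G protein signals, and platelet chemokines, 1 of 6 tested rose: Ackr1, a receptor of venules and red cells, by 0.95 ± 0.12 between the untreated groups (adjusted p = 0.00399), a count near the 16.8% of all genes called. In treated islets it was at 7.50 and 7.27 in Irs2-/- and 5.97 and 6.03 in WT (1.38 ± 0.12, adjusted p = 0.00884), so the estimate was not smaller under tungstate. The mean of 9 endothelial genes besides Ackr1 was 8.31 and 8.23 in untreated and 8.55 and 8.07 in treated Irs2-/- islets, against 7.54 to 7.77 in the 4 WT arrays. With Ackr1 among them, 2 of 9 tested endothelial genes were higher in untreated Irs2-/- islets. The part of that mean in the Ackr1, Icam2 and Selp values was not tested.

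Of 21 tested genes that carry the receptors' signal, 5 were higher and 2 lower in untreated Irs2-/- islets, with a median of 0.33 (all genes: 8.27% higher, 8.52% lower, median -0.01). Pik3r5, a subunit of the lipid kinase driven by G protein beta-gamma dimers, rose by 1.66 ± 0.23 (adjusted p = 0.00497), Gng2, a G protein gamma subunit, by 0.67 ± 0.17 (adjusted p = 0.0359) and Was, an actin regulator of blood cells, by 1.58 ± 0.41 (adjusted p = 0.0370). Grk5, a kinase that silences activated receptors, fell by 1.25 ± 0.16 (adjusted p = 0.00360), and was lower in treated Irs2-/- islets as well (-1.09 ± 0.16, adjusted p = 0.0277). Of 19 tested inducers of chemokine genes, 2 rose and 0 fell, which is near the share of all genes (8.27% higher, 8.52% lower). They were Bcl3, a partner of NF-kB (0.74 ± 0.16, adjusted p = 0.0226), and Ifngr1, a chain of the interferon gamma receptor (0.63 ± 0.18, adjusted p = 0.0486). Relb, a subunit of NF-kB, differed by 1.29 ± 0.37 (adjusted p = 0.0524) and Il1b by 0.62 ± 0.22 (adjusted p = 0.0893). None of the tested genes of these 2 lists or of the atypical receptor list passed with tungstate in Irs2-/- islets.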

How the data were processed

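Total RNA of 8 islet samples was hybridised to Affymetrix mouse arrays, 1 array a sample. The deposited values are log2 intensities per probe set, made by the authors with RMA in the affy package (R 2.7.0), per the submitters' processing notes; their genome build was not given in the sources used here. RMA subtracts background and equalises the distributions of the arrays, so shifts common to all genes are removed, and the values carry no detection calls.

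Probe sets were named through the platform annotation: 34945 name 1 gene, 932 several and 9160 none, and 64 controls were left out. Each gene was read by its probe set of highest mean. Genes with a mean at or above the 40th percentile (13369 of 18193) were fitted with limma 3.58.1 (R 4.3.3) as 4 group means on all 8 arrays, with eBayes and Benjamini-Hochberg adjustment over all of them at 0.05. With 2 arrays a group there were 4 residual and 3.89 prior degrees of freedom, and the median SE of a difference was 0.14. As the labels do not name the mice behind each array, the p-values reflect the spread between arrays, which may be technical. Figures after ± are SEs.

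Other filters, scalings, variance models, probe set rules, a replicate block, single arrays left out and marker levels as covariates were tried. Leaving out untreated replicate 1 of both genotypes and the B cell and macrophage covariates were added after seeing the data. Members and gene lists were chosen with earlier results of these data known. Named genes are members that passed in any comparison or were above background on both arrays of a group, and of each other list up to 4 genes of smallest p. RefSeq (GRCm38.p6) gave promoter sequences and neighbours.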

Additional observations from a re-analysis of the deposited data

Results flagged for a closer look

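The Ccl19 signal lies outside the 50 genes, because its probe set also names the pseudogene copy Ccl19-ps1 and reads from the copies cannot be told apart. It was 2.02 ± 0.49 (SE, log2) higher in untreated Irs2-/- than in untreated WT islets by limma over all probe sets (adjusted p = 0.0474), above the level in the control samples. Its values were 6.41 and 6.02 in untreated WT, 5.73 and 5.62 in treated WT, 9.18 and 7.30 in untreated Irs2-/- and 6.93 and 6.65 in treated Irs2-/- islets. Both Irs2-/- groups thus lay above all 4 WT arrays. The difference with tungstate in Irs2-/- islets, -1.45 ± 0.49, did not pass (adjusted p = 0.344). Ccl19 draws Ccr7-bearing cells, and its highest value was on untreated Irs2-/- replicate 1, as was that of Ccr7.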

How the results depend on the processing

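Between untreated Irs2-/- and untreated WT islets 10 members were called. The count was 4 of 11 tested at the 60th percentile filter (20.1% of all genes called), 4 of 32 with the B cell marker level as a covariate (3.01%), 0 with the macrophage marker level (0%), and between 4 and 16 with 1 array left out. For tungstate in Irs2-/- islets (4 calls) it was 1, 2 and 0 under the same settings (0.332%, 0.0673% and 0% of all genes), and 2 with only the arrays compared (0.142%). Between the treated groups (0 calls) it was 1 with only the arrays compared (0.942% of all genes) and 3 with the acinar marker level (2.08%). For the difference between the tungstate effects (0 calls) it was 1 with the acinar marker level (0.0299% of all genes) and 1 at an adjusted p under 0.1 (0.0972%). It also rose in some fits with arrays left out. For tungstate in WT islets it was 0 throughout. For the genotype averaged over treatments (9 calls) it was 4 at the 60th percentile, 14 at an adjusted p under 0.1, 3 with the B cell and 0 with the macrophage marker level, and between 8 and 19 with 1 array left out. Members above background numbered 32, and 11 at the 60th percentile. The macrophage covariate also turned the sign of 4 called genes. Between the untreated groups the values were -2.04 for Ccl6, -2.07 for Ccl8, -2.75 for Ccl9 and -0.20 for Cxcr6, and averaged over treatments -1.07, -1.39, -1.52 and -0.03. With tungstate in Irs2-/- islets Ccl8 was at 1.26. That fit has large errors (2.44 for Ccl6). The cause was not tested for any of these changes.

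Cxcl9 kept its call between the untreated groups under 21 of 22 alternatives, Ccl5 under 23 of 24 and Ccl8 under 22 of 23, each lost only with the macrophage covariate. With tungstate in Irs2-/- islets Cxcl9 kept its call under 21 of 22, Ccl5 under 19 of 24, Cxcr3 under 14 of 23 and Ccl8 under 13 of 23. With the replicate number as a block, 11 of 32 members were called between the untreated groups (18.2% of all genes) and 5 for tungstate in Irs2-/- islets (0.613%). In that fit 1 was called between the treated groups (1.32%) and 10 averaged over treatments (23.6%). The numbers were not taken to pair the samples, since the correlations of same-numbered deviations ran from -0.07 to 0.42. Signal near background limits Cxcl9, Ccl8 and Cxcr6, whose WT group means lie under it.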
